A study of Mus musculus with 16 samples.

Results

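Broad H3K4me3 domains were taken as stretches of at least 5000 bp covered without a break by the H3K4me3 peaks of Dicer-deleted and Dicer-intact mesenchymal stem cell lines, once the 4 peak lists were laid over each other. They were chosen by the merged width alone. Of 24560 merged H3K4me3 regions on chromosomes 1 to 19, 1124 (4.58%) met this width. They held 7.37 Mb, or 13.3% of the length of all merged regions.

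H3K4me3, the trimethylation of lysine 4 on histone H3, is written by the SET1 and MLL families of methyltransferases and marks the starts of active genes and of genes held ready for activation. At most promoters it forms a short block around the start site. Domains that run on for several kilobases, usually into the transcribed body of the gene, have been described in many cell types at genes tied to cell identity and at genes with high and steady transcription. H3K36me3 is laid down by SETD2 travelling with elongating RNA polymerase II and so covers transcribed gene bodies. H3K27me3 is the mark of Polycomb repressive complex 2, and where it meets H3K4me3 at a promoter the pair is called bivalent.

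The cells were immortalized monoclonal C57BL/6 mouse MSC lines, adult stromal cells that grow like fibroblasts. KO lines were Dicer -/- and lacked the ribonuclease that matures microRNAs, and WT lines were Dicer f/f, with both alleles floxed. Chromatin immunoprecipitation and sequencing was done for H3K4me3, H3K36me3 and H3K27me3 in 2 replicates of each genotype, and 4 samples of whole-cell extract were also listed. The labels did not say how many clones were used or whether replicates were separate cultures, so a difference between genotypes and a difference between clones cannot be told apart, and the spread between replicates may be technical. Each library came with its peaks against extract and with a difference list, read here as its peaks above the other genotype. The control of the difference lists was not given in the sources used here, so which genotype a call is said to be higher in rests on that reading. The depth of the libraries was unknown. Positions refer to mm9. The annotation at hand was of another build, so the domains carry no gene names.

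The H3K4me3 lists of the 4 libraries differed in extent more by replicate number than by genotype. On chromosomes 1 to 19 they covered 31.5 Mb in KO replicate 1, 51.3 Mb in KO replicate 2, 24.3 Mb in WT replicate 1 and 42.8 Mb in WT replicate 2. The breadths that follow carry this difference, and the part of depth in it was not tested. The H3K27me3 lists also split by replicate number, with 698 and 17471 peaks in KO, against 2533 and 14523 in WT, and KO replicate 1 was the shortest.

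Most of the domains were only a little wider than the limit. The median width was 5922.5 bp, against 1849 bp over all merged regions, and 593 domains (52.8%) measured less than 6 kb. Only 55 domains (4.89%) reached 10 kb and 3 reached 20 kb. At the limit, members and non-members had overlapping values. The 2 narrowest members, chr2:26764010-26769009 and chr10:29251700-29256699, both measured 5000 bp. H3K4me3 covered 4048 and 4607 bp of the chr2 member in KO, against 4035 and 5000 bp in WT. It covered 0 and 5000 bp of the chr10 member in KO, against 2018 and 4079 bp in WT. The 2 widest non-members, chr2:56966049-56971047 and chr5:20558585-20563583, measured 4999 bp. They were covered over 4817 and 4951 bp and over 3906 and 4999 bp in KO, and over 3450 and 4818 bp and over 3893 and 4852 bp in WT.

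Broad domains were spread over all 19 autosomes and mostly lay far apart. Their share of a chromosome's merged regions ran from 3.27% on chromosome 14, with 27 domains, to 5.97% on chromosome 19, with 54. Chromosome 11 held the largest number, 98. Neighbouring domains on a chromosome were a median of 983058 bp apart, and 27 of 1105 neighbouring pairs were less than 10 kb apart.

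Nearly every domain carried H3K4me3 in each library, and the libraries differed in how far it reached. All 4 libraries listed a peak at 1089 domains (96.9%). Single libraries listed 1101 in KO replicate 1, 1123 in KO replicate 2, 1106 in WT replicate 1 and 1121 in its replicate 2. The median length covered was 4209 and 5645.5 bp in the KO libraries and 4071 and 5486 bp in the WT libraries. Both replicate 2 libraries thus lay above both replicate 1 libraries, and within a number the genotypes were close. Of the summed domain length, KO libraries covered 67.7% and 95.3% and WT libraries 64.6% and 91.6%.

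Long single peaks were found mostly in the replicate 2 lists. A single peak of at least 5 kb was present at 207 domains (18.4%) in KO replicate 1 and at 929 (82.7%) in KO replicate 2, against 171 (15.2%) in WT replicate 1 and 806 (71.7%) in WT replicate 2. Such a peak was found in all 4 libraries at 105 domains, in 3 at 144, in 2 at 436 and in 1 at 389. The remaining 50 domains had no peak of this length in any library and reached it only when lists were merged. The strongest peak of a domain had the score 3100 or more, the value at which the deposited scores crowd, at 85.0% and 98.2% of domains in KO and at 82.7% and 97.9% in WT. Among the 9679 narrower regions listed in all 4 libraries these shares were 58.8% and 90.2% in KO, against 44.2% and 88.0% in WT. Width and strength both come from the lists that chose the domains, so these values are descriptive.

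**Figure D1:**
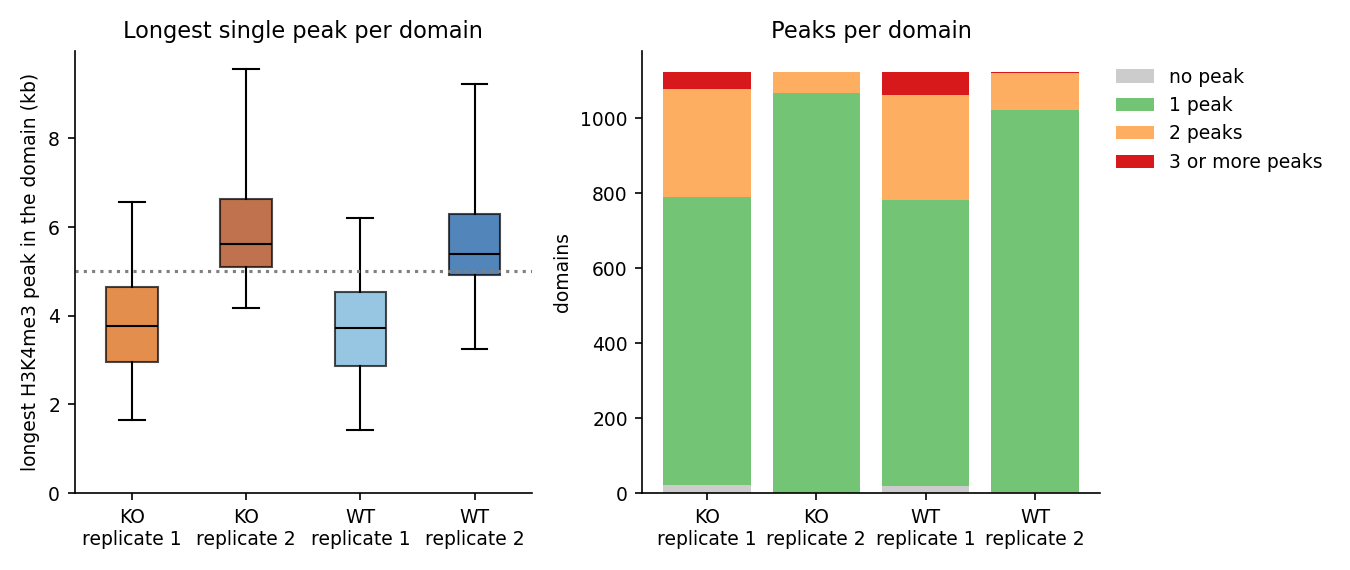
Breadth and splitting of the 1124 broad H3K4me3 domains in each library. Left, length in kb of the longest single H3K4me3 peak per domain, with boxes for the quartiles, a line for the median, whiskers from the 5th to the 95th percentile and a dotted line at 5 kb; right, number of domains by the count of peaks in them. The medians lie at 3780.5 and 5614 bp in KO and at 3734.5 and 5401.5 bp in WT, and split domains are more frequent in both replicate 1 libraries.

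Nearly every domain had a stretch shared by all libraries, with further stretches seen in only some. Bases covered in all 4 libraries, here called the core, made up 57.5% of the domain length and occurred in 1087 domains (96.7%), with a median of 3724 bp per domain. A further 14.5% was covered by the replicate 2 lists of KO and WT and by neither replicate 1 list. Bases covered in both KO libraries and in neither WT library made up 1.44%, and the reverse 0.309%. KO replicate 2 alone covered 6.72% and WT replicate 2 alone 4.18%. The breadth that followed genotype in both replicates was thus a small part of the domains.

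Splitting into several peaks was a feature of the shorter lists. At least 2 peaks lay in 335 domains (29.8%) in KO replicate 1 and in 57 (5.07%) in KO replicate 2, and in 343 (30.5%) in WT replicate 1 and in 102 (9.07%) in WT replicate 2. No library split 605 of the domains, and 4 domains were split in all 4. Replicate 1 of KO and of WT both split 202 domains, while replicate 2 of both split 12. Only 2 domains were split in both KO libraries and in neither WT library, and 9 the other way round. The same count was not made over all merged regions.

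The gaps inside split domains were short. By the merging, each base of a gap was covered in at least 1 other library, so the shares below say only in which. The median gap was 227.5 bp in KO replicate 1 and 235 bp in KO replicate 2, against 227 and 307 bp in the WT replicates of the same numbers. The 392 gaps of KO replicate 1 were covered over 94.8% of their length in KO replicate 2 and over 84.8% in WT replicate 2, but over 27.2% in WT replicate 1. The 423 gaps of WT replicate 1 were covered over 96.0% in KO replicate 2, 91.5% in WT replicate 2 and 52.1% in KO replicate 1. The 59 gaps of KO replicate 2 were covered over 92.1% in WT replicate 2, but over 5.56% in KO replicate 1 and 11.2% in WT replicate 1. For the 107 gaps of WT replicate 2 the shares were 98.0% in KO replicate 2, 38.4% in KO replicate 1 and 4.34% in WT replicate 1. Most of the gap length carried neither of the other marks. H3K27me3 of the same genotype and number covered 2.74% and 10.1% of it in KO, against 0.533% and 9.39% in WT. Of the whole domain length H3K27me3 covered 0.181% and 1.36% in KO, against 0.808% and 2.33% in WT, so its share was higher in the gaps in all libraries but WT replicate 1. These shares rest on few domains, as H3K27me3 was listed on 7 and 46 in KO and on 19 and 52 in WT. In KO, 6029 and 8964 bp of it lay on chr6:52185836-52211905, the domain with the most peaks. How much of the higher share came from this domain was not tested. H3K36me3 covered 7.10% and 14.2% of gap length in KO, against 7.03% and 11.98% in WT, and in each library this was below its cover of the whole domains.

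Of the 5 widest domains, 3 were also the 3 with the most peaks. The widest, chr3:5202712-5230263, measured 27552 bp and was covered over 14756 bp in 5 peaks and 27070 bp in 2 peaks in KO, and over 15046 bp in 4 peaks and 27458 bp in 2 peaks in WT. The second, chr6:52185836-52211905 with 26070 bp, held the largest number of peaks over the 4 libraries, 14. It was covered over 15146 and 23104 bp in KO, against 18115 and 25739 bp in WT, where replicate 2 had it as 1 unbroken peak apart from its outer ends. These 2 domains differed between replicates much more than between genotypes.

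The third widest domain, chr15:85493209-85518411, was nearly whole in replicate 2 of both genotypes, with 16412 and 24102 bp in KO, against 21526 and 25203 bp in WT. It also lay largely under H3K36me3, which covered 51.2% and 63.7% of it in KO and 68.3% and 72.4% in WT. The fourth, chr3:99050598-99068662, had 15112 and 17919 bp of H3K4me3 in KO, against 13009 and 17862 bp in WT. The fifth, chr8:111225200-111243070, had 11420 and 17289 bp in KO, split into 6 peaks in replicate 1, and 7042 and 17554 bp in WT. Neither H3K36me3 nor H3K27me3 was listed on it in any library, and within 10 kb only 1616 bp of H3K27me3 was listed, in WT replicate 2.

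In the median, H3K4me3 breadth differed little between KO and WT. The median log2 ratio of covered length, KO over WT, was 0.04 in replicate 1 and 0.04 in replicate 2, over domains listed in both. KO was wider in both replicates at 454 domains and WT at 252. This count sets same-numbered libraries side by side, though nothing in the labels pairs them. It was not made over all merged regions, and within each number the whole KO list was the longer. Both KO libraries covered more than either WT library at 82 domains (7.30%) and both WT libraries more than either KO library at 18 (1.60%), beside 13.0% and 0.741% of all merged regions. All these values come from the lists used to choose the domains and are given without a test.

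The domains with the largest gaps between genotypes were led by a region found in KO only. At chr16:43698080-43703282 H3K4me3 covered 4270 and 5203 bp in KO, and no peak was listed in either WT library. At chr13:23589776-23599242 it covered 8974 and 9280 bp in KO, against 1641 and 5444 bp in WT, where it was split into 2 and 4 peaks. At chr4:129849039-129855097 it covered 5179 and 5620 bp in KO, against 1108 and 1655 bp in WT. In these 3 domains the smaller KO value exceeded the larger WT value by 4270, 3530 and 3524 bp, and with a minimum score of 160 the gap at the chr4 domain fell to 2719 bp.

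On the WT side the gaps were smaller. At chr11:3188191-3193467 H3K4me3 covered 2911 and 3070 bp in KO, against 4908 and 5068 bp in WT. At chr4:63703615-63709399 it covered 1233 and 1941 bp in KO, against 3617 and 5785 bp in WT. At chr2:54287302-54292528 it covered 0 and 2526 bp in KO, against 3971 and 5227 bp in WT. Each of these 3 domains was a single peak wherever it was listed, and the chr2 domain lacked a peak in KO replicate 1. H3K36me3 within 10 kb was listed only in WT libraries at all 3: over 5534 and 8418 bp at the chr11 domain, 7247 and 0 bp at the chr4 domain and 2183 and 8710 bp at the chr2 domain.

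**Figure D2:**
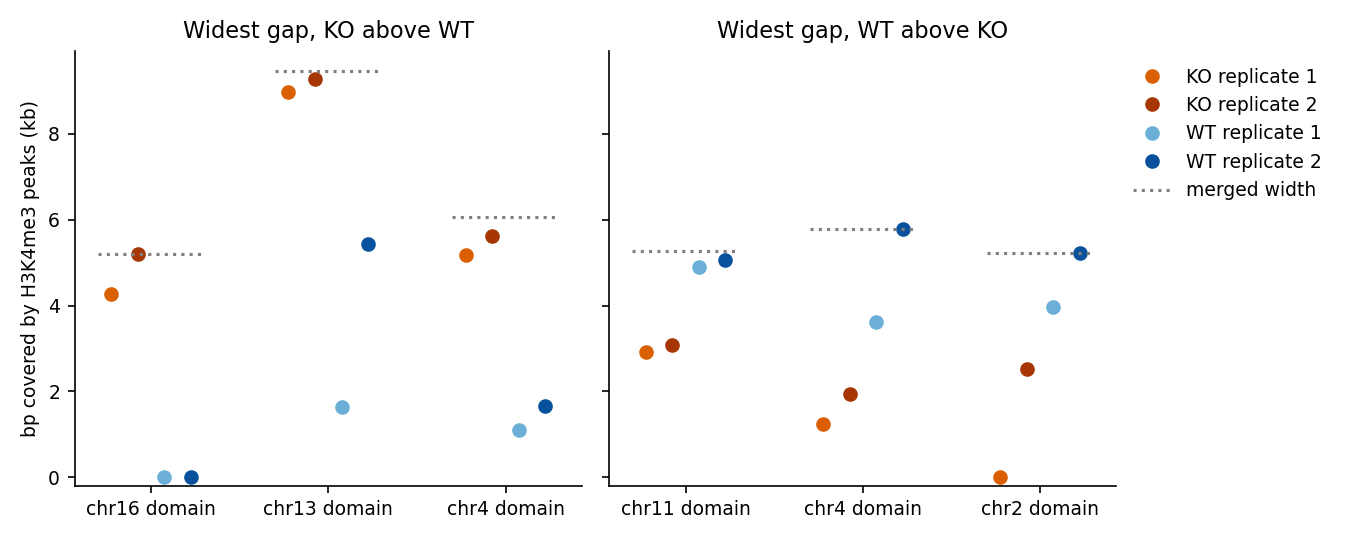
Length in kb covered by H3K4me3 peaks in each library at the 3 domains with the largest gap in favour of KO (left) and of WT (right). Points are single libraries and dotted lines give the merged width; the chr16 domain has no peak in WT, and the KO points lie below both WT points in the right panel.

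The difference lists named few broad domains in both replicates. H3K4me3 was KO-higher in both at 11 domains, 0.979% of them, beside 11.0% of all merged regions, and WT-higher in both at 12 domains, 1.07%, beside 1.05%. The 9679 narrower regions listed in all 4 libraries had 0.816% KO-higher and 0.434% WT-higher. Of the 11 KO-higher domains 6 had no H3K4me3 peak in WT replicate 1, and 1, at chr1:45367845-45373226, also held a WT-higher peak of 686 bp in replicate 1. Of the 12 WT-higher domains 8 had no H3K4me3 peak in KO replicate 1. At 1 of these 8, chr9:72538566-72544617, singled out after its values were seen, KO replicate 2 had none either, and WT had 1327 and 6052 bp of H3K4me3. H3K36me3 covered 79.9% and 100% of this domain in KO, against 79.9% and 0% in WT. The WT libraries thus differed from each other there in both marks. The comparison uses the same H3K4me3 libraries as the choice of the domains, so the shares are read no further.

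Replicate 1 of WT departed from this pattern. The difference lists of the KO libraries held peaks in 48 (4.27%) and 21 (1.87%) domains, against 249 (22.2%) for WT replicate 1 and 18 (1.60%) for the other WT library. Over all merged regions the shares were 21.0% and 24.1% for KO, against 6.63% and 4.95% for WT. Over narrower regions listed in all 4 libraries they were 6.76% and 1.56% for KO, against 9.79% and 0.951% for WT. At the 249 domains the median covered length was 3862 bp in KO replicate 1, against 4243 bp in WT replicate 1, so breadth differed little there. Of the length of the difference peaks of WT replicate 1, 77.9% lay in the core, which made up 52.6% of these domains. The core lies within the peaks of each library by definition. Of the H3K4me3 difference peaks of WT replicate 1, 97.6% had the coordinates of its own peaks, so this excess says nothing of their position. Of the 249, 12 recurred in WT replicate 2, whose difference list held peaks in only 18 domains.

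H3K36me3 was listed within 10 kb of most broad domains, usually on 1 side. A peak lay within 10 kb of a domain's edge at 699 (62.2%) and 817 (72.7%) domains in KO, and at 829 (73.8%) and 954 (84.9%) in WT. It was on 1 side only at 49.3% and 55.6% of domains in KO and at 58.3% and 61.9% in WT, and on both sides at 12.9% and 17.1% in KO and at 15.5% and 23.0% in WT. In all 4 libraries 645 domains (57.4%) had H3K36me3 beside them, and 139 (12.4%) had none in any.

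KO libraries listed H3K36me3 beside fewer domains than WT libraries did, with means of 67.4% in KO, against 79.3% in WT. The difference of -11.9 percentage points had an exact two-sided permutation p = 0.333 (n = 2 per genotype), the smallest p that 2 libraries against 2 allow. The H3K36me3 lists themselves were shorter in KO, at 86.5 and 108.5 Mb, than in WT, at 105.9 and 172.9 Mb, and KO replicate 2 (72.7%) stood close to WT replicate 1 (73.8%). Without KO replicate 1 the difference was -6.63 points, and without WT replicate 2 it was -6.32 points. At the narrower H3K4me3 regions the same shares were 31.3% and 36.5% in KO, against 35.2% and 45.01% in WT. Whether list length accounts for the difference was not tested.

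**Figure D3:**
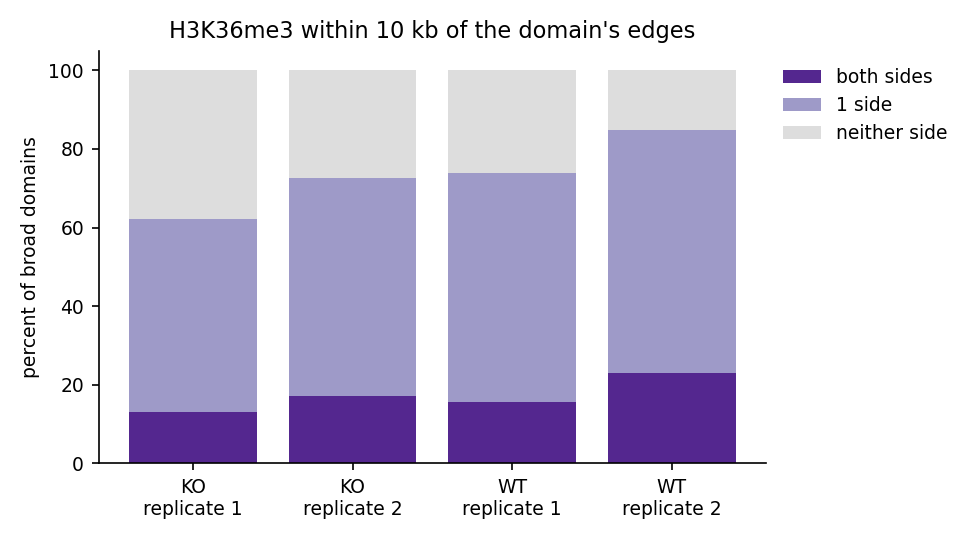
Percent of the 1124 broad H3K4me3 domains with an H3K36me3 peak within 10 kb of both edges, of 1 edge or of neither, in each library. The 1-sided class is the largest in every library, from 49.3% in KO replicate 1 to 61.9% in WT replicate 2.

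H3K36me3 also entered the domains. It overlapped 388 domains in KO replicate 1 (34.5%, 95% Wilson interval 31.8% to 37.3%) and 506 in KO replicate 2 (45.02%, 42.1% to 47.9%). It overlapped 531 in WT replicate 1 (47.2%, 44.3% to 50.2%) and 731 in WT replicate 2 (65.0%, 62.2% to 67.8%), and these intervals cover counting error only. Of the domain length it covered 11.99% and 17.0% in KO, against 17.2% and 26.5% in WT. The core was covered less than the rest of the domain in each library, at 10.7% and 15.04% of core bases in KO and 14.9% and 22.4% in WT, against 13.8% and 19.6% of other bases in KO and 20.3% and 32.1% in WT. H3K36me3 covered more of the domain in both KO libraries than in either WT library at 14 domains and less at 269, beside 0.391% and 5.28% of all merged regions.

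The 3 domains with the highest mean H3K36me3 cover lay largely under both marks. At chr2:125859208-125869610 H3K36me3 covered 84.2% and 83.1% in KO, against 86.1% and 85.5% in WT, and the H3K4me3 peaks spanned 7281 and 10365 bp in KO, against 7791 and 9703 bp in WT. At chr7:80680515-80687359 H3K36me3 covered 77.5% and 83.4% in KO, against 67.3% and 94.2% in WT. At chr19:44366967-44376141 it covered 74.6% and 81.0% in KO, against 81.4% and 82.7% in WT. Each of these 3 domains was a single H3K4me3 peak in all 4 libraries.

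The outer stretches of the domains lay mainly on the side of H3K36me3. This was measured at domains with H3K36me3 within 10 kb on 1 side only, as the distance from the end of the core to the end of the merged domain, here called the shoulder. With H3K36me3 of the KO libraries the median shoulder was 1350 and 1411.5 bp on the H3K36me3 side, against 525 and 525.5 bp on the other. With H3K36me3 of the WT libraries it was 1371 and 1412 bp, against 514 and 519.5 bp. The side with H3K36me3 had the longer shoulder at 440 of 547 and 502 of 612 domains in KO (80.4% and 82.0%) and at 541 of 647 and 571 of 682 in WT (83.6% and 83.7%). The mean difference of medians was 865 bp. The shoulders come from the H3K4me3 lists that chose the domains, and the 4 H3K36me3 lists pick many of the same domains, so the values are given as a description, with no test.

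Narrower regions had the same lean, with a smaller gap. Among those listed in all 4 libraries the medians were 528 and 544 bp on the H3K36me3 side, against 410 and 410 bp on the other, with KO lists. They were 542 and 545 bp, against 410 and 410 bp, with WT lists. A wide domain has room for a longer shoulder by the way it was chosen, so the sizes of the 2 gaps are not compared by a test.

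The H3K4me3 libraries differed in how far they reached on that side. At 406 domains all 4 H3K36me3 lists had the mark on the same single side. There the outermost peak of KO replicate 1 stopped a median of 1301.5 bp short of the domain's end on the H3K36me3 side and 264 bp short on the other, and that of WT replicate 1 stopped 1073 and 472 bp short. Replicate 2 stopped 0 and 0 bp short in KO and 56.5 and 59.5 bp short in WT. The domain's end is the outermost base of the merged lists, so the short distances of the longer replicate 2 lists are largely built in. In the bin from 3 to 3.25 kb off the middle of the core, H3K4me3 covered 56.6% on the H3K36me3 side and 24.7% on the other in KO replicate 2, and 53.2% and 20.7% in WT replicate 2. In replicate 1 these values were 14.1% and 15.8% in KO, against 15.5% and 10.3% in WT. The lean of the coverage at this distance was thus clear in both replicate 2 libraries and absent in KO replicate 1. The middle of the core is set mainly by the shorter replicate 1 lists. Their near balance around it and the lean of the longer lists are therefore partly built in, and the contrast is read no further.

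**Figure D4:**
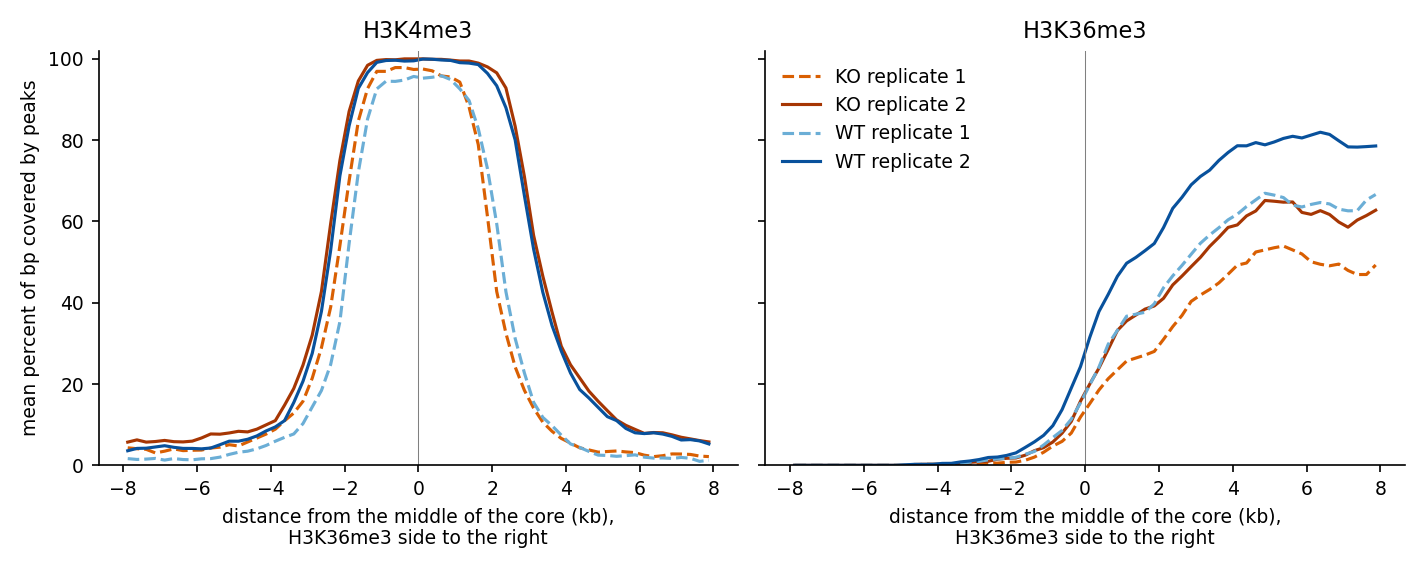
Mean percent of bases covered by H3K4me3 peaks (left) and H3K36me3 peaks (right) in bins of 250 bp around the middle of the core of 405 broad domains with a core, turned so that H3K36me3 lies to the right. Lines are the 4 libraries; the right flank of H3K4me3 reaches farther out in replicate 2 of both genotypes, where the bin 3 kb from the middle stands at 56.6% in KO and 53.2% in WT on the right and at 24.7% in KO and 20.7% in WT on the left. The H3K36me3 lines are one-sided by the way the domains were turned. The middle of the core is set mainly by the shorter replicate 1 lists, which favours balance in their H3K4me3 lines.

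Broad domains had H3K36me3 beside them more often than narrower H3K4me3 regions did, in each of the 4 libraries. The means were 73.4% of broad domains and 37.0% of narrower regions, a difference of 36.4 percentage points (exact two-sided sign-flip permutation p = 0.125, n = 4 libraries, the smallest possible). Against the 9679 narrower regions listed in all 4 H3K4me3 libraries the difference was 13.5 points, with 52.7% and 58.9% of them beside H3K36me3 in KO, against 57.9% and 70.0% in WT. Across classes of width the share climbed steeply up to about 4 kb. The percent of regions listed in all 4 H3K4me3 libraries rose over the same classes, from 0.602% below 1 kb to 12.2% at 1 to 2 kb and 91.9% at 3 to 4 kb. The parts of width and of recurrence were not tested. Beyond 4 kb the share beside H3K36me3 rose more slowly in KO replicate 2 and both WT libraries, with dips among the widest classes, and hardly at all in KO replicate 1. In regions of 1 to 2 kb this share was 17.4% and 22.2% in KO, against 20.5% and 28.8% in WT, in those of 4 to 5 kb 60.4% and 69.5% in KO, against 69.7% and 81.6% in WT, and in domains of 10 kb or more 56.4% and 78.2% in KO, against 70.9% and 87.3% in WT. Most of the rise thus lay below the limit of 5 kb.

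**Figure D5:**
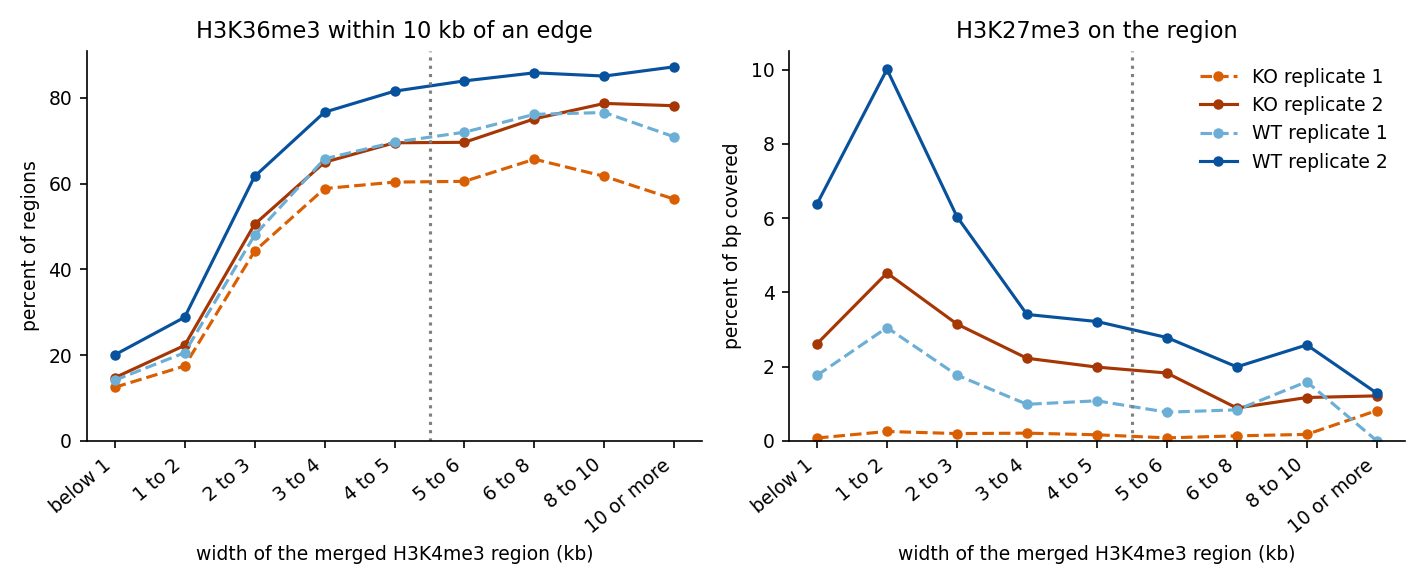
Percent of merged H3K4me3 regions with H3K36me3 within 10 kb of an edge (left) and percent of their bases covered by H3K27me3 (right), by width of the region in kb, for each library. The share of regions listed in all 4 H3K4me3 libraries also rises over the classes below 5 kb. The dotted line marks the limit of 5 kb; the left panel climbs steeply up to about 4 kb and more slowly or not at all beyond, and in the right panel the KO replicate 2, WT replicate 1 and WT replicate 2 lines are highest at 1 to 2 kb.

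The Polycomb mark was rare on broad domains. H3K27me3 overlapped 7 domains in KO replicate 1 (0.623%, 95% Wilson interval 0.302% to 1.28%) and 46 in KO replicate 2 (4.09%, 3.08% to 5.42%). It overlapped 19 in WT replicate 1 (1.69%, 1.08% to 2.63%) and 52 in WT replicate 2 (4.63%, 3.55% to 6.02%). No library listed it at 1050 domains (93.4%), and all 4 listed it at 4. The means, 2.36% in KO and 3.16% in WT, differed by -0.80 percentage points with an exact two-sided permutation p = 0.667 (n = 2 per genotype, smallest possible 0.333), and the sign turned to 0.93 points without KO replicate 1 and to 0.67 points without WT replicate 2. H3K27me3 cover in both KO libraries lay above both WT libraries at 1 of 1124 domains and below both at 15. Over all merged regions the shares were 0.0529% and 1.62%.

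Over all domains, H3K27me3 covered a smaller share of the core than of the other bases, which include the 37 domains with no core. Of core bases H3K27me3 covered 0.0275% and 0.323% in KO, against 0.250% and 1.14% in WT, and of the other bases 0.389% and 2.76% in KO, against 1.56% and 3.94% in WT. H3K36me3 was listed beside a smaller share of the domains with H3K27me3 than of the rest. Domains with H3K27me3 had H3K36me3 within 10 kb at 4 of 7 (57.1%) in KO replicate 1, 20 of 46 (43.5%) in KO replicate 2, 2 of 19 (10.5%) in WT replicate 1 and 23 of 52 (44.2%) in WT replicate 2. Domains without H3K27me3 had it at 62.2% and 73.9% in KO and at 74.8% and 86.8% in WT.

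By length, H3K27me3 covered 0.181% and 1.36% of broad domains in KO and 0.808% and 2.33% in WT. In narrower regions it covered 0.201% and 3.15% in KO, against 1.87% and 6.24% in WT. The mean difference, broad minus narrower, was -1.70 percentage points (exact two-sided sign-flip permutation p = 0.125, n = 4 libraries, the smallest possible), with lower values in 4 of 4, and -0.96 points without WT replicate 2. Against narrower regions listed in all 4 H3K4me3 libraries it was -0.10 points (exact p = 0.625), with values there of 0.12% and 1.55% in KO, against 0.658% and 2.75% in WT. By cover, the contrast with narrower regions was thus hardly present once those seen in only some libraries were left out. Around the regions it was larger. H3K27me3 lay within 10 kb of 0.534% and 8.19% of broad domains in KO, against 1.60% and 7.56% in WT. For narrower regions listed in all 4 libraries the shares were 0.940% and 15.7% in KO, against 3.04% and 16.8% in WT, above the broad domains in each library, and this difference was not tested.

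At the 3 domains with the largest mean H3K27me3 cover, both WT libraries lay above both KO libraries in this mark. At chr13:40823155-40829367 H3K27me3 covered 0% and 93.4% in KO, against 100% and 100% in WT, and H3K4me3 covered 1130 and 3273 bp in KO, against 6213 and 2571 bp in WT. There KO replicate 2 stood close to WT, and the 0% came from KO replicate 1, whose H3K27me3 list was the shortest, with 698 peaks. At chr6:127098083-127105424 H3K27me3 covered 37.1% and 59.0% in KO, against 96.6% and 100% in WT, beside 6129 and 7330 bp of H3K4me3 in KO, against 2567 and 5868 bp in WT. At chr11:95861252-95869755 H3K27me3 covered 10.6% and 52.7% in KO, against 69.2% and 100% in WT, and H3K4me3 covered 3392 and 8504 bp in KO, against 0 and 1156 bp in WT. At the chr6 and chr11 domains both KO libraries thus lay below both WT libraries in H3K27me3 and above them in H3K4me3.

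The second widest domain, chr6:52185836-52211905, went the other way in H3K27me3. The mark covered 23.1% and 34.4% of it in KO and 0% and 4.5% in WT, and it was the only broad domain KO-higher in H3K27me3 in both replicates. H3K4me3 covered less of it in each KO library than in the WT library of the same number.

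Calls of the other marks in both replicates leaned to WT at the domains, as they did over all merged regions. H3K36me3 on or within 10 kb of a domain was KO-higher in both replicates at 7 domains (0.623%) and WT-higher at 45, beside 0.599% and 1.48% of all merged regions. A wide domain offers a longer window to such a peak. Of the narrower regions listed in all 4 libraries 0.651% were KO-higher and 1.38% WT-higher. In single replicates H3K36me3 was KO-higher at 55 and 42 domains (4.89% and 3.74%), beside 4.12% and 1.82% of all regions. It was WT-higher at 177 and 141 (15.7% and 12.5%), beside 5.17% and 5.88%. H3K27me3 was KO-higher in both replicates at 1 domain (0.0890%) and WT-higher at 14 (1.25%), beside 0.0285% and 2.25% of all merged regions. In single replicates H3K27me3 was KO-higher at 2 and 25 domains (0.178% and 2.22%), beside 0.0611% and 0.843% of all regions. It was WT-higher at 15 and 46 (1.33% and 4.09%), beside 2.46% and 6.84%.

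Calls in 2 marks met at 9 domains, which were singled out after their values were seen. How often such calls meet over all merged regions was not counted. The numbers of domains by combination, here and below, are therefore read no further. WT-higher H3K4me3 met WT-higher H3K36me3 at 5 of them. At chr9:58155846-58161963 H3K4me3 covered 2386 and 3816 bp in KO, against 4746 and 6118 bp in WT, while H3K36me3 covered 0% and 0% of the domain in KO and 47.8% and 61.9% in WT. At chr3:83568937-83574390 H3K4me3 covered 0 and 4385 bp in KO, against 4243 and 5454 bp in WT, while H3K36me3 covered 0% and 56.1% in KO, against 61.0% and 74.2% in WT. The other 3 were the chr2:54287302-54292528 domain given above, chr2:151736233-151743491 and chr19:59530611-59536628.

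KO-higher H3K4me3 met KO-higher H3K36me3 at 2 domains and WT-higher H3K27me3 at 3. At chr19:42123199-42129798 H3K4me3 covered 3632 and 6600 bp in KO, against 0 and 1678 bp in WT, while H3K36me3 covered 36.7% and 49.0% in KO and none of it in WT. No H3K27me3 was listed on this domain in any library. At chr16:22158086-22164816 H3K4me3 covered 4718 and 6731 bp in KO, against 0 and 2467 bp in WT, and H3K27me3 covered 0% and 0% in KO, against 82.1% and 100% in WT. The chr11:95861252-95869755 domain given above was another of these 3. At chr6:49159107-49169040 all the marks differed: H3K27me3 covered 5.4% and 37.5% of it in KO and 74.7% and 100% in WT, and the H3K4me3 peaks of KO replicate 2 spanned its full 9934 bp, against 1836 bp in WT replicate 2.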

How the data were processed

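Per the submitters' processing notes, Bowtie 0.12.7 and MACS were used with the mm9 build; the sources used here give no version of MACS. For each of 12 libraries the authors deposited peaks called per library over whole-cell extract, and a second list of difference peaks, making 24 lists. A score of 80 or more, of unstated formula, stands beside each deposited peak. Scores served only to filter and describe peaks. Of the difference peaks, 74.4% to 97.6% on chromosomes 1 to 19 had exactly the coordinates of an extract peak of their own library.

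Overlapping or touching H3K4me3 peaks of the 4 extract lists were merged on chromosomes 1 to 19, and regions of at least 5000 bp were kept. Overlap needed 1 bp. Flanks of 10 kb were measured outside a region's edges. A call needed a difference peak in both replicates, on the region for H3K4me3 and H3K27me3 and within 10 kb for H3K36me3. Libraries, not domains, were the replicates of the exact two-sided permutation tests, computed with Python 3.11.15 and numpy 2.4.6. Interval functions were tested on simulated lists and gave the known answers. The members, comparisons and lists were chosen with earlier results of these data known. Named domains follow a rule: the widest, those with the largest gap between genotypes, the most peaks or the largest cover by another mark, and those next to the limit. Domains named from the difference lists outside this rule, among them those called in 2 marks or in both directions, were chosen after their values were seen. The shoulders and the comparison with narrower regions listed in all 4 libraries were added after the data were examined. Gene lists were not used here, because the annotation at hand was not of mm9, and no sequence is given for the same reason.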

Additional observations from a re-analysis of the deposited data

Results flagged for a closer look

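Chromosome X lay outside the choice of the domains but carried regions of the same kind. Merging its H3K4me3 peaks in the same way gave 24 regions of 5000 bp or more among 644 (3.73%), and they were left out of all values above.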

How the results depend on the processing

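The number of domains depended mainly on the width asked for: 2519 at 4000 bp, 1124 at 5000 bp and 55 at 10000 bp. It was 1122 with scores of at least 160, 1359 with peaks less than 1000 bp apart joined, and 850 to 1120 without 1 library, lowest without KO replicate 2. The KO minus WT difference in domains with H3K27me3 ran from -2.54 to 0.93 percentage points without 1 library and was 0 in domains of 10000 bp or more. That in H3K36me3 beside the domains ran from -17.4 to -6.32 points without 1 library and kept its sign under every alternative tried. Without 1 library, broad domains exceeded narrower regions by 35.2 to 38.2 points in H3K36me3 beside them, and their H3K27me3 cover differed by -2.26 to -0.96 points. The shoulder difference was 1590 bp in domains of 10000 bp or more and 848 to 879 bp under the other alternatives. Domains of 10000 bp or more had 0 KO-higher and 0 WT-higher H3K4me3 calls, 1 and 2 in H3K36me3, and 0 WT-higher in H3K27me3. With scores of at least 160, H3K36me3 calls fell to 4 KO-higher and 21 WT-higher, and H3K27me3 WT-higher calls to 9. With 1 replicate alone, H3K4me3 calls numbered 21 to 48 KO-higher and 18 to 249 WT-higher, H3K36me3 calls 42 to 55 and 141 to 177, and H3K27me3 calls 2 to 25 and 15 to 46. Apart from the smaller number of domains or replicates, the cause of these shifts was not tested. Same-numbered libraries of the 2 genotypes deviated together over the domains (correlation 0.46 in H3K4me3, 0.25 in H3K36me3 and 0.33 in H3K27me3), but nothing in the labels pairs them. These correlations used differences of covered length not scaled by domain width. Both replicate 2 lists covered more than the replicate 1 list of their genotype, so wider domains can raise the correlation, and this part was not tested. With the replicate number as a block the KO minus WT differences in H3K27me3 on and H3K36me3 beside the domains were the same, -0.80 and -11.9 points, with exact sign-flip p = 0.5, the smallest 2 pairs allow. No read depth was at hand, so unequal depth could not be taken out of any breadth.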
